A study of Mus musculus with 48 samples.

Results

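The 7 genes Spp1, Lpl, Cd9, Timp2, Fth1, Ank and Ccl6 are markers of the disease-associated state of microglia, the resident macrophages of the brain, and several of them also mark microglia of developing axon tracts. The rule lists them by name, leaving out Trem2, Apoe and the cathepsins, and uses no measured value, although the list was drawn up with earlier results of these data known. All 7 are among the 478 genes in the tables, and all 7 symbols matched a protein-coding mouse gene of RefSeq (GRCm38.p6).

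Microglia of the hippocampus were compared between 3 rearing groups of BALB/cByJ pups aged 17 days, labelled CTL (control), LB and UPS. Each group had 16 animals, 8 of either sex. Every ratio below pools both sexes, so a difference in males or females alone was not tested. As background, LB stands for rearing with limited bedding and nesting material, and UPS for the same with unpredictable stress added. About 60000 cells per animal were isolated on a Percoll gradient and by flow cytometry, and their transcripts were counted on an nCounter glial panel, which reads probe-bound RNA molecules without amplification. The 48 libraries were run in 4 batches, each with 2 animals of every group and sex. Each group and sex drew its pups from 4 to 5 litters. Some were therefore littermates, and every p-value and interval given here takes them as independent.

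As background, microglia around amyloid plaques, damaged myelin and dying neurons take on a state in which homeostatic genes are turned down and genes of lipid uptake, lysosomes and adhesion are turned up. Fth1 belongs to the early step of that programme, which does not need the receptor Trem2, while Lpl, Cd9, Timp2 and Ccl6 belong to the later step, which does. A closely related state appears for a short time after birth in the white matter, where Spp1-expressing microglia clear debris and myelin-forming cells. The series title names reduced Trem2 levels in stressed pups, which raises the question whether genes of the Trem2-dependent state differed with rearing.

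None of the 7 markers differed between any pair of groups at an adjusted p below 0.05. By the authors' deposited tables, 0 of 7 passed between CTL and LB, where 0% of the 478 genes did, 0 of 7 between CTL and UPS, where 4.81% did, and 0 of 7 between LB and UPS, where 6.28% did. At an unadjusted p below 0.05 the markers again numbered 0 of 7 in each of the authors' deposited tables, beside 11.7%, 16.3% and 18.8% of all genes in that order. The smallest p of a marker was 0.0715 between CTL and LB (Lpl, adjusted p = 0.448), 0.113 for CTL against UPS (Cd9, adjusted p = 0.41) and 0.0801 for LB against UPS (Ccl6, adjusted p = 0.328) in the authors' deposited tables. Such p-values do not show that the groups were alike, and the intervals below give the sizes that the data leave possible. In lysates of many cells, a smaller share of microglia in the marked state and less of the transcript in each such cell cannot be told apart.

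Ratios are given on the log2 scale with the sign that the authors' deposited tables carry. The file headers do not say which group is the numerator. If it is the later-named group, a positive ratio stands for a higher level in UPS (in LB, for CTL and LB), and under the opposite reading every sign in all 3 comparisons turns. No value per animal was used here, so the level of a marker in each group, its spread over single animals and the overlap of the groups are not given. Each 95% interval rests on a standard error recovered from the ratio and its p with 42 residual degrees of freedom. For each marker the ratio between LB and UPS equalled the difference of the 2 ratios against CTL to within 0.0006, so 3 comparisons carry 2 independent differences.

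**Figure D1:**
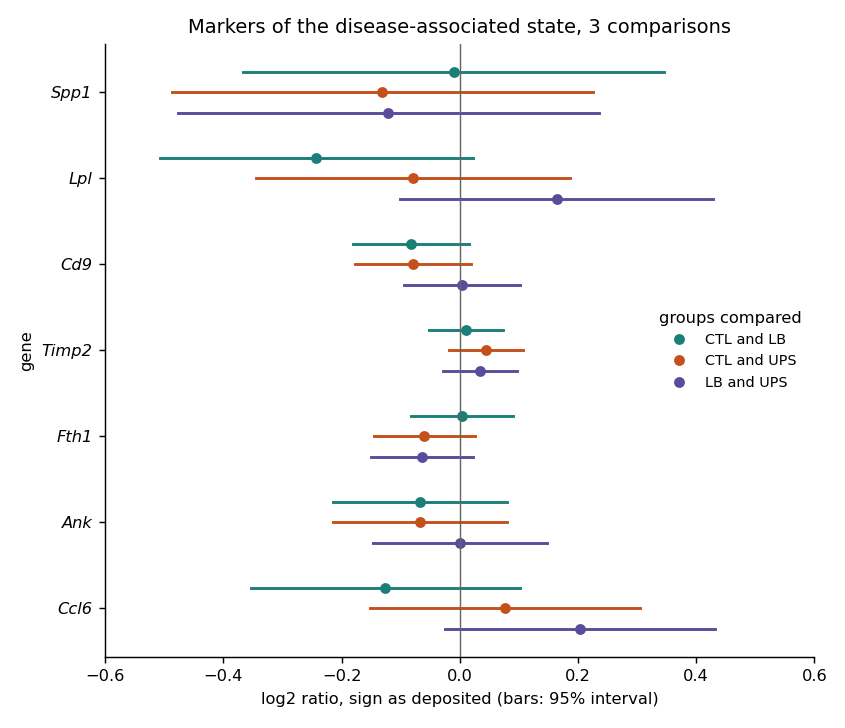
Log2 ratio (horizontal axis, sign as deposited) of each of the 7 markers (vertical axis) in the comparisons of CTL and LB, CTL and UPS, and LB and UPS. Points are the deposited ratios and bars the recovered 95% intervals, all 21 of which include 0 and lie between 0.703-fold and 1.35-fold.

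Lpl had the largest ratio of the markers. Lpl encodes lipoprotein lipase, which releases fatty acids from lipoprotein triglycerides. For Lpl the authors' deposited tables gave log2 ratios of -0.24 between CTL and LB (0.845-fold), -0.079 between CTL and UPS (0.947-fold) and 0.16 between LB and UPS (1.12-fold). The LB group lay at one end of the order and CTL at the other, with UPS between them. The interval between CTL and LB ran from -0.51 to 0.022 on the log2 scale, or from 0.703-fold to 1.02-fold, so a difference of up to 1.42-fold in either reading lay inside it. By size this ratio ranked 25th and by p 75th of the 478 genes of the comparison.

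The secreted markers did not follow one order of the groups. Spp1 encodes osteopontin, a phosphoprotein that binds integrins and CD44. Its log2 ratios in the authors' deposited tables were -0.010 between CTL and LB (p = 0.955), -0.13 between CTL and UPS (p = 0.462) and -0.12 between LB and UPS (p = 0.497). For Spp1 the CTL and LB groups therefore lay together, 0.0567 standard errors apart, and UPS lay to one side. UPS was only 0.686 standard errors from LB, within the error of the estimate. The interval between CTL and UPS reached from 0.713-fold to 1.17-fold.

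Ccl6, a chemokine that attracts myeloid cells, had log2 ratios of -0.13 between CTL and LB (p = 0.271), 0.076 between CTL and UPS (p = 0.501) and 0.20 between LB and UPS in the authors' deposited tables. The groups stood in the order LB, CTL, UPS, and of the 7 markers Ccl6 and Fth1 had CTL in the middle. The interval between LB and UPS ran from 0.983-fold to 1.35-fold. Neighbouring groups in that order were 1.11 and 0.675 standard errors apart, within the error of the estimate.

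Timp2, an inhibitor of matrix metalloproteinases that also takes part in activating one of them, was measured most precisely. The log2 ratios in the authors' deposited tables were 0.011 (p = 0.722), 0.045 (p = 0.156) and 0.034 (p = 0.284) between CTL and LB, CTL and UPS, and LB and UPS. All 3 intervals lay between 0.965-fold and 1.08-fold. A Timp2 difference above 1.08-fold in either direction was thus outside each interval.

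The membrane markers Cd9 and Ank each had nearly the same ratio in both stress groups. Cd9 is a tetraspanin that organises adhesion and signalling proteins at the cell surface. Per the authors' deposited tables, Cd9 had log2 ratios of -0.083 (CTL and LB, p = 0.0975), -0.079 (CTL and UPS, p = 0.113) and 0.0036 (LB and UPS, p = 0.941). Against CTL the lower bounds were 0.882-fold (LB) and 0.884-fold (UPS) and both upper bounds 1.01-fold. The interval between LB and UPS ran from 0.937-fold to 1.07-fold. Both ratios against CTL use the same 16 control animals, so they are not separate measurements of a difference.

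Ank, a membrane protein that moves pyrophosphate out of the cell, had log2 ratios of -0.067 between CTL and LB (p = 0.363), -0.067 between CTL and UPS (p = 0.361) and -0.00038 between LB and UPS (p = 0.996) in the authors' deposited tables. The sign of the last is without weight, since it turns to 0.0099 when the ratios are centred on the median of all genes. The LB and UPS interval of Ank ran from 0.903-fold to 1.11-fold. Against CTL both intervals ran from 0.862-fold to 1.06-fold.

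Fth1, the heavy chain of the iron store ferritin, had log2 ratios of 0.0038 between CTL and LB (p = 0.929), -0.060 between CTL and UPS (p = 0.167) and -0.064 between LB and UPS (p = 0.142) in the authors' deposited tables. As for Spp1, CTL and LB lay together, 0.0898 standard errors apart, and UPS to one side. UPS was 1.41 standard errors from CTL, and the intervals of both comparisons with UPS include 0. The 3 intervals of Fth1 lay between 0.901-fold and 1.06-fold.

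**Figure D2:**
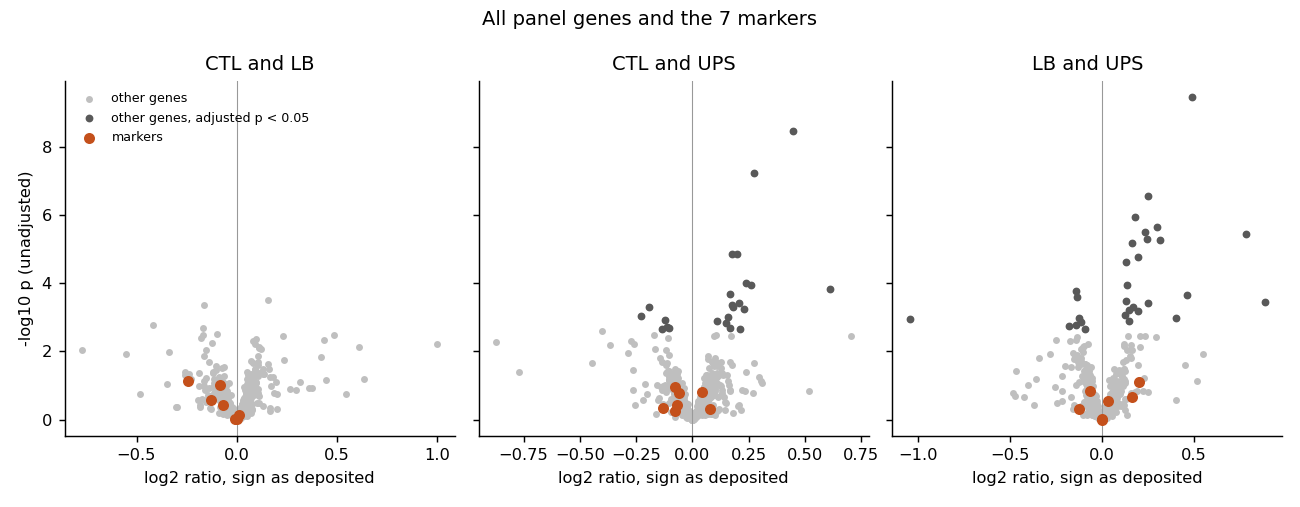
Log2 ratio (horizontal axis, sign as deposited) against -log10 of the unadjusted p (vertical axis) for the 478 genes of each comparison, with the markers in orange and other genes with an adjusted p below 0.05 in dark grey. The 7 markers lie among the genes that did not pass in each panel, the highest of them Lpl between CTL and LB, with a smaller p than 84.3% of the genes, while 0, 23 and 30 other genes passed.

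How small a difference could have been seen varied between the markers. The recovered standard error of a ratio was 0.031 for Timp2, 0.043 for Fth1, 0.049 for Cd9, 0.073 for Ank, 0.11 for Ccl6, 0.13 for Lpl and 0.18 for Spp1 on the log2 scale. The median of all 478 genes was 0.050, so Timp2, Fth1 and Cd9 were more precise than the middle gene and the other 4 less. Timp2 ranked 43rd from the smallest standard error and Spp1 455th. In a balanced design these errors imply a residual spread between animals of the same group and batch of 0.088 for Timp2 (1.06-fold) and 0.50 for Spp1 (1.41-fold). Between CTL and UPS, a gene with the error of Timp2 would have needed a ratio of 1.07-fold to match the p of the last gene that passed, one with that of Cd9 1.12-fold, one with that of Lpl 1.35-fold and one with that of Spp1 1.49-fold. Whether the wide errors of Spp1, Lpl and Ccl6 come with low counts was not tested, since their counts were not used here.

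**Figure D3:**
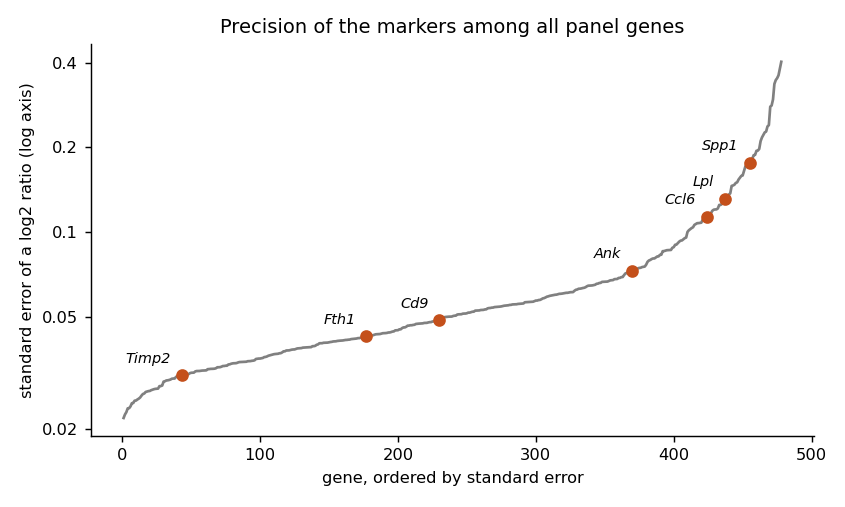
Recovered standard error of a log2 ratio (vertical log axis) for the 478 genes in order of size (horizontal axis), with the 7 markers as labelled points. Timp2 sits near the lower end at 0.031, Cd9 near the median at 0.049 and Spp1 near the upper end at 0.18.

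Joint tests of the 3 groups called no marker either. An F test of any difference among CTL, LB and UPS, rebuilt from the ratios and standard errors of the authors' deposited tables and adjusted by the Benjamini-Hochberg method over all genes, passed for 0 of 7 markers and for 6.90% of the 478 genes. At an unadjusted p below 0.05 it was 0 of 7 beside 19.7%. Cd9 had the smallest p of the markers in the F test (0.172, adjusted p = 0.435), followed by Lpl (0.181) and Ccl6 (0.207). Spp1 had the largest (0.713).

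A contrast of LB and UPS together against CTL asked what the stress groups shared. It passed for 0 of 7 markers and for 0% of all genes, and at an unadjusted p below 0.05 for 0 of 7 beside 11.7%. Cd9 came closest, with a log2 difference of -0.081 ± 0.042 (SE), a p of 0.0624 and an adjusted p of 0.441. The Cd9 interval ran from -0.17 to 0.0044 on the log2 scale. The contrast of Lpl was wider, from 0.763-fold to 1.05-fold (p = 0.165). That of Ccl6, whose LB and UPS ratios had opposite signs, was -0.025 (p = 0.802).

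Many other genes had a similar pattern to each marker once ratios were scaled by their standard errors, though the ratios themselves could differ in size. Likeness was measured as the distance between the 3 ratios of 2 genes, each divided by its standard error. Within 1 standard error of a marker lay 28 (Ccl6, 5.87%) to 72 (Spp1, 15.1%) of the other genes. Nearest to Lpl was Atp6v1b2, a subunit of the vacuolar proton pump, at 0.162 standard errors, with smaller log2 ratios of -0.066, -0.025 and 0.041. Cdc27, a subunit of the anaphase-promoting complex, was nearest to Cd9 (0.0369) and Psmb8, a subunit of the immunoproteasome, to Fth1 (0.0243). For Spp1 it was Chchd3 (0.0404), with a log2 ratio of -0.038 between CTL and UPS, for Timp2 the leukotriene synthase Ltc4s (0.111), with 0.17 there, for Ank the interleukin-10 receptor chain Il10ra (0.0756) and for Ccl6 the calcium channel subunit Cacna2d3 (0.283). No marker was the nearest gene of another marker. With 7 markers among 478 genes that outcome was likely beforehand, and no ratio of a marker passed. Whether the markers vary together was not tested.

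The median log2 ratio of the 7 markers was -0.067 between CTL and LB, -0.067 between CTL and UPS and 0.0036 between LB and UPS, beside 0.0035, -0.0025 and -0.010 for all 478 genes. Their median size without sign was 0.067, 0.076 and 0.064, beside 0.043, 0.051 and 0.054 for all genes. Among the markers, Spp1, Lpl, Ccl6 and Ank had standard errors above the median of all genes. Of the 7 ratios 5 were negative between CTL and LB, 5 between CTL and UPS and 3 between LB and UPS. Among all 478 genes 226, 245 and 268 were negative in that order. None of these ratios passed, and the comparisons against CTL share their control animals.

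A listed gene is called measured here if it was in the tables. The series text describes an analysis of genes above 20 counts. A listed gene that is absent may therefore have been on the panel and left out for low counts. The remaining measured genes of the disease-associated and axon-tract states gave the same count of 0. Of 36 such genes on a separate list 15 were measured, and 0 of the 15 passed in any of the authors' deposited tables. Of all 478 genes 0% passed between CTL and LB, 4.81% between CTL and UPS and 6.28% between LB and UPS. In each comparison 2 of the 15 had an unadjusted p below 0.05, beside 11.7%, 16.3% and 18.8% of all genes in that order. For CTL against LB the 2 genes were Ctsd, a lysosomal protease (-0.12), and Lamp1, a lysosomal membrane protein (0.073), in the authors' deposited table. Between CTL and UPS they were the lipid carrier Apoe (0.13) and Lamp1 (0.061), and between LB and UPS Apoe (0.13) and Ctsd (0.12) in the authors' deposited tables. Axl, a receptor for apoptotic cells that belongs to the later step, was at -0.011, 0.069 and 0.080 in the authors' deposited tables, and Csf1, a growth factor of microglia, at 0.20, -0.021 and -0.22. Trem2 itself was at -0.013 (p = 0.716), -0.00074 (p = 0.984) and 0.013 (p = 0.731) in the authors' deposited tables. Its intervals lay between -0.086 and 0.085 on the log2 scale. Small differences in either direction thus remain possible. These RNA ratios pool both sexes and do not measure Trem2 protein. They are therefore not a test of the reduced Trem2 levels that the series title names. The medians of these 15 genes were 0.00056, 0.033 and -0.0035.

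Homeostatic genes, which fall as the disease-associated state sets in, were measured for 17 of 19 listed. By the authors' deposited tables, 0 passed between CTL and LB, 1 between CTL and UPS (Tgfbr1, a TGF-beta receptor, 0.11) and 2 between LB and UPS (Tgfbr1, 0.18, and the microglial surface protein Tmem119, 0.46), with positive ratios, where 0%, 4.81% and 6.28% of all genes passed. At an unadjusted p below 0.05 there were 4, 4 and 3 of the 17, beside 11.7%, 16.3% and 18.8% of all genes. Negative ratios among these belonged to Olfml3, a secreted microglial protein (-0.17, p = 0.00334, adjusted p = 0.194), and Tgfbr1 (-0.071, p = 0.0306) in the authors' deposited table of CTL against LB. Aif1, the microglial protein Iba1, was at -0.063 (p = 0.0382) for CTL against UPS in the authors' deposited tables. P2ry13, a purinergic receptor, was at -0.082 (p = 0.0388) for LB against UPS in the authors' deposited tables. The others were positive. For CTL against LB these were Sparc (0.11, p = 0.00762) and Siglech (0.050, p = 0.0398) in the authors' deposited tables. For CTL against UPS they were Tgfbr1, Tmem119 (0.27, p = 0.022) and Itgam (0.0885, p = 0.0434) in the authors' deposited tables. For LB against UPS they were Tgfbr1 and Tmem119. P2ry12, a purinergic receptor of resting microglia, was at 0.082, 0.0088 and -0.073 in the authors' deposited tables, and Cx3cr1, the fractalkine receptor, at -0.0087, -0.0093 and -0.00063. The microglial identity genes P2ry12, Tmem119, Cx3cr1, Csf1r, Aif1 and Itgam were all measured, but a table of ratios does not give their levels.

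**Figure D4:**
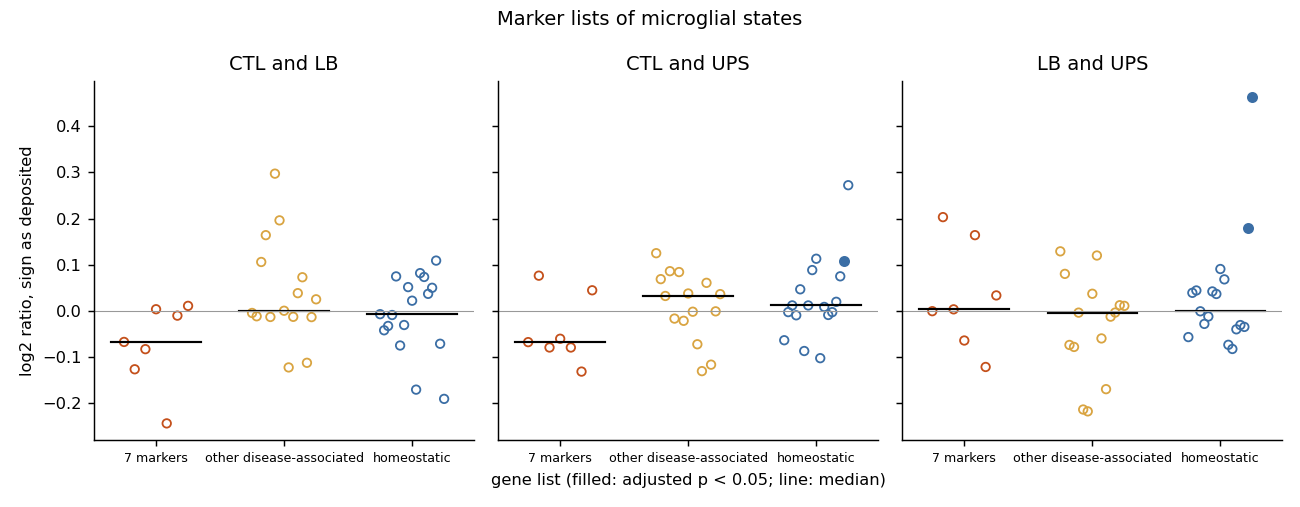
Log2 ratio (vertical axis, sign as deposited) of the 7 markers, of 15 other disease-associated or axon-tract genes and of 17 homeostatic genes in each comparison. Each circle is a gene, filled where its adjusted p was below 0.05, and lines are medians; the filled circles are Tgfbr1, between CTL and UPS, and Tgfbr1 and Tmem119, between LB and UPS.

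Few genes that act with the markers were in the tables. Whether the absent ones were missing from the panel or left out for low counts was not tested. None of 9 osteopontin receptors, 9 metalloproteinases and their inhibitors or 5 genes of phosphate and pyrophosphate handling was in the tables. Beside Lpl, 1 of 22 genes of lipid handling was measured, the sterol exporter Abca1, at -0.076 between CTL and LB, 0.026 for CTL against UPS and 0.10 for LB against UPS (p = 0.0363, adjusted p = 0.215) in the authors' deposited tables. Beside Fth1, 1 of 12 genes of iron handling was measured, the haem-degrading enzyme Hmox1, at 0.24 (p = 0.0173, adjusted p = 0.306), 0.16 and -0.073 in the authors' deposited tables. The tetraspanin Tspan7, 1 of 8 listed beside Cd9, was at 0.089, 0.043 and -0.046 in the authors' deposited tables.

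Ccl6 had the opposite sign to the other chemokine genes given here in 2 of 3 comparisons and the same sign in the remaining one. The listed chemokines Ccl2, Ccl3 and Ccl12, which attract monocytes and other leukocytes, were measured. All 3 had positive ratios between CTL and LB, from 0.16 to 0.44, and negative ratios between LB and UPS, from -0.22 to -0.078, in the authors' deposited tables, where Ccl6 had -0.13 and 0.20. Between CTL and UPS their ratios, from 0.086 to 0.22, were positive like that of Ccl6 (0.076) in the authors' deposited table. None of the 3 passed, and among them only Ccl12 between CTL and LB had an unadjusted p below 0.05 (p = 0.00475, adjusted p = 0.194 in the authors' deposited table). A difference between Ccl6 and these genes was not tested.

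Markers of other cell types were sparse among the 478 genes. Of the astrocyte markers 2 of 10 were measured and of the border macrophage and monocyte markers 1 of 10, and Slc1a3, the astrocyte glutamate transporter, and Stab1, a scavenger receptor, passed between CTL and UPS (0.21 and 0.205) and between LB and UPS (0.25 and 0.195) in the authors' deposited tables. The 4 oligodendrocyte lineage genes and the single neuronal, vascular, neutrophil and lymphocyte genes measured passed in none of the authors' deposited tables. Some further ratios of these lists had an unadjusted p below 0.05 in the authors' deposited tables. Csf3r, listed here as a neutrophil marker, was at -0.17 for CTL against LB and 0.11 for LB against UPS. The lymphocyte gene Klrd1 was at -0.77 for CTL against UPS. For LB against UPS the oligodendrocyte precursor gene Cspg4 was at 0.45 and the astrocyte gene Glul at 0.15. The part of these cells in the ratios of the 7 markers was not tested.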

How the data were processed

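Per the file headers, the authors deposited for each pair of groups per gene its log2 and linear fold change (a ratio), the p-value and that p-value after Benjamini-Hochberg adjustment. Per the series text these come from nSolver's advanced analysis with batch as a covariate, after a multivariate analysis of genes above 20 counts. How counts were normalized and which software version ran is not given in the sources used here, and depth per library is unknown. Members and gene lists were chosen with earlier results of these data known.

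No model was refitted. P-values were adjusted over all 478 genes of a table, threshold 0.05. Standard errors were recovered with a t distribution from the comparison of a gene with the smallest p. With 42 degrees of freedom (all 48 libraries, rearing and batch) they differed least between tables (median 0.145%, against 0.148% with sex added and 0.444% for 2 groups with batch). From them the F test and the contrast of both stress groups (standard error times the square root of 3/4, valid in a balanced design) were rebuilt for every gene. These steps were tested on data simulated from the same rearing and batch model. That test bears on the arithmetic only, not on whether the deposited p-values follow this model. Named genes were all 7 markers, list genes past the threshold or with the smallest p, and the nearest genes by ratio; other list genes were named after their values were seen, and some listed genes are not reported here. SciPy 1.17.1 and pandas 2.3.3 were used. The alternatives tried were other thresholds and adjustments, centring, other degrees of freedom and the linear column.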

Additional observations from a re-analysis of the deposited data

How the results depend on the processing

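The count of markers past the threshold was 0 in all 5 tests and remained 0 in the 31 alternatives run on them. For each test these were an adjusted p below 0.10, an unadjusted p below 0.05, Bonferroni adjustment and centring on the median of all genes. Each test was also run with the 27 degrees of freedom of a fit of 2 groups with batch. Each pair was also run with adjustment over the 3 tables together and with the authors' deposited adjusted p. Not all of these could have given another count. The smallest unadjusted p of a marker in the 5 tests was 0.0624 (Cd9, contrast of LB and UPS together against CTL). Adjustment cannot lower a p, so every adjustment of these p-values at 0.05, also over the 3 tables together, had to give 0. Bonferroni adjustment is stricter than the main setting, and the authors' adjusted p differed from the main one by at most 0.0026. For pairs, standard errors recovered with 27 degrees of freedom give back nearly the deposited p. Centring turned the sign of 1 of 21 ratios, that of Ank between LB and UPS, to 0.00985 (adjusted p = 0.957), and the other 20 kept sign and side of the threshold. The deposited linear fold change, given to 3 digits, gave a sign opposite to the log2 column in 0 of 21 ratios. It restates that column, at most 0.494% apart over all genes, so this outcome was fixed in advance. For Cd9 and Ank between LB and UPS and Fth1 between CTL and LB it was 1, which has no sign. No paired analysis was possible because the tables used here hold comparisons, not values per animal; leaving out animals or batches was not possible for the same reason. Precision was limited for Spp1, Lpl and Ccl6, whose intervals include differences of 1.35-fold to 1.42-fold.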
